A study of Arabidopsis thaliana with 2 samples.

Results

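The plastid genome of Arabidopsis thaliana encodes the photosynthesis genes and, beside them, a set of genes for the thylakoid NDH complex and for the plastid's own transcription and translation. This second set, with a few plastid genes of other function, is described here in the sap of leaf trichomes and of leaf pavement cells. Its members were the plastid-encoded genes whose symbol starts with ndh, rps, rpl, rpo or ycf, together with matK, clpP, accD, ccsA and cemA. Each was measured by a probe set that the platform annotation pairs with exactly 1 gene. By this rule there were 36 genes, out of 13356 genes with such a probe set on the array. They were 10 NDH subunit genes, 8 genes for proteins of the small ribosomal subunit, 7 for the large subunit, 4 for RNA polymerase subunits and 7 others. Of the others, matK and clpP were counted with the gene-expression genes. The rest (accD, ccsA, cemA, ycf3 and ycf4) belong to neither group, though all 36 are called NDH and gene-expression genes for short. A further 33 plastid-encoded genes on the array, for the photosystems, the cytochrome b6f complex, the ATP synthase and the large subunit of rubisco, served for comparison.

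The study hybridised 1 Affymetrix array with RNA from trichome sap and 1 with RNA from pavement cell sap. Trichomes are hairs of 1 cell each on the leaf surface, and pavement cells make up most of the epidermis around them. Both came from leaves of plants of genotype Columbia-0 aged 5 weeks, with no treatment that differed between them, and the sap was drawn with microcapillaries. A kit for small amounts of tissue gave the RNA, which went through 1 round of amplification before the biotin labelling. With 1 array per cell type no value below has a replicate error and no p-value could be computed, so that precision is limited by the number of arrays.

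The NDH complex of the thylakoid membrane takes up electrons from ferredoxin and feeds them back to plastoquinone, which is part of the cyclic electron flow around photosystem I. Its subunits come partly from plastid genes and partly from nuclear genes. The plastid's bacterial-type RNA polymerase has its core subunits encoded in the plastid by the rpo genes, and plastid ribosomes are likewise built from plastid-encoded and nuclear-encoded proteins. Plastid genes are mostly transcribed as clusters, and the long primary transcripts are then cut, spliced and edited. Plastids of epidermal cells in Arabidopsis leaves are usually smaller and paler than the chloroplasts of the mesophyll below.

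Values are log2 signals as the authors deposited them, and differences are trichome minus pavement. A signal was taken as background when it did not exceed 2.58, the highest reading of 27 probe sets for Bacillus subtilis transcripts. A gene was counted as differing when the difference reached 2-fold and the higher of the paired readings was above that ceiling. Where the trichome reading was at background, the fold was computed against the ceiling and is given as "at least". Each of the 36 genes had 1 probe set, so no spread between probe sets could be had for them. For 36 genes elsewhere on the array with several probe sets and some signal above background, the pooled SD of the difference between probe sets was 0.95. Over the 3 genes whose every probe set was above background it was 1.42. Both are rough guides that leave out the spread between plants and amplifications.

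The median signal over all probe sets was 2.06 in trichome and 2.03 in pavement. The 18 hybridisation control probe sets were all dimmer in trichome, with a median difference of -3.15, and signals above background came from 3169 of 22810 probe sets in trichome and 4218 in pavement. Among markers of trichomes, 7 of 20 listed genes had a named probe set and only SIM, which blocks division of the growing hair, exceeded background in trichome, at 2.79 against 2.06 in pavement. TBR (AT5G06700), a gene of cellulose deposition in the hair's wall, had 2.07 in trichome and 6.83 in pavement. Of the listed epidermal markers only ACR4 was measured, at background on both arrays. Of 14 listed names for the guard cell lineage 3 genes were measured. SPCH, MUTE and FAMA, its transcription factors, read 2.62, 2.96 and 2.87 in trichome, just above the ceiling, and 2.003, 2.06 and 1.99 in pavement, with a summed linear signal of 21.2 in trichome and 12.1 in pavement; none reached 2-fold. These markers therefore do not settle either cell label. Of 22 listed mesophyll genes 4 were measured (RCA, LHCB4.1, LHCB4.2 and PSAE-1), and all 4 were above background on both arrays, with a summed linear signal of 56.8 in trichome and 2211 in pavement.

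On the deposited scale the plastid NDH and gene-expression genes read lower in trichome than in pavement or lay near background. None was counted as higher in trichome on that scale. Centred on the hybridisation controls, 9 were lower and 10 higher, but there the median of all genes was itself past 2-fold higher, at 3.17. Among the 19 genes above background on both arrays, that centring gave 9 lower and 4 higher. Of the 36 genes, 21 were 2-fold or more lower in trichome and 0 were 2-fold or more higher; over all 13356 genes the shares were 5.07% lower and 0.726% higher. Only genes above background on at least 1 array could be counted, and these were 26 of the 36 but 2624 of all 13356. Of genes that are not plastid-encoded, 258 of 352 with a pavement signal between 4 and 6 were 2-fold or more lower. Between 6 and 8 they were 101 of 105. The 21 genes were 58.3% of the 36, against 69.7% (23 of 33) of the plastid photosynthesis genes, which showed no gene higher in trichome either. The median difference was -1.33 over the 36 genes, -1.77 over the 33 photosynthesis genes and 0.02 over all genes. When background readings were set to the ceiling, 20 of the 36 genes were 2-fold or more lower and 0 higher, against 4.06% and 0.322% of all genes, and the median of the 36 was -1.14. At 4-fold, 16 of the 36 genes were lower and 0 higher, against 2.27% and 0.105% of all genes. Differences of 16-fold or more lower in trichome were shown by 11 of the 36 genes and by 0.719% of all genes. Centring on the controls moved the median of all genes to 3.17 and that of the 36 genes to 1.82. It subtracts the same value from every difference, so the gap between these medians could not change. In sap of a whole cell, fewer plastids or transcripts per cell and a smaller share of cells that hold them cannot be told apart. The mesophyll genes and the hybridisation controls above moved the same way, and their part in these differences was not tested.

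Signal from these genes was nevertheless present in trichome sap. In trichome 19 of the 36 genes (52.8%) were above background, and in pavement 26 (72.2%), against 12.2% of all genes in trichome and 15.9% in pavement. Of the photosynthesis genes 12 of 33 (36.4%) were above background in trichome and 25 (75.8%) in pavement. No gene of the 36 was above background in trichome alone. They fell into 19 genes above background on both arrays, 7 in pavement only and 10 on neither. Among the 19, rps3, rpl14, rps18, cemA, rpoC2, ycf4 and ndhI read only 2.62 to 2.75 in trichome, just above the ceiling.

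**Figure D1:**
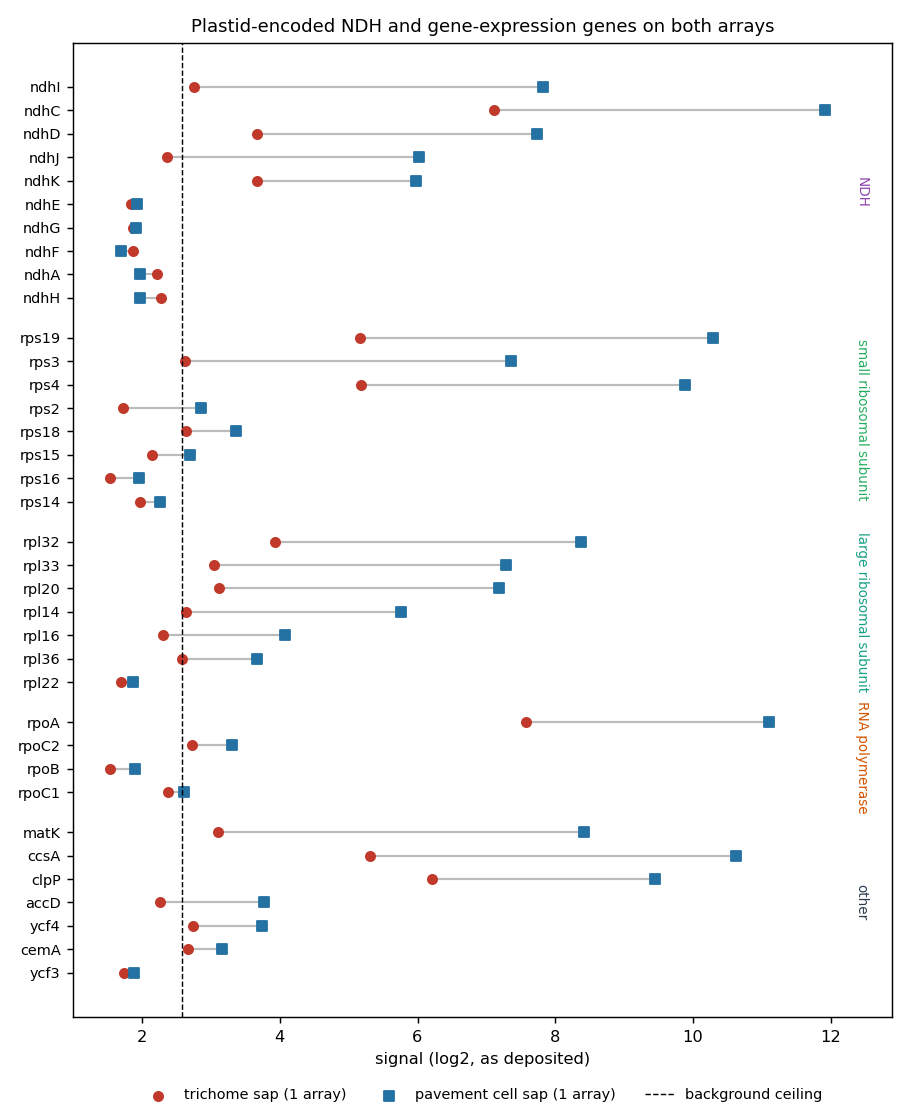
Log2 signal of each of the 36 genes on the trichome array (red circles) and the pavement array (blue squares), grouped by function, with the background ceiling of 2.58 as a dashed line. For 33 genes the trichome point lies left of the pavement point, and 10 genes have both points at background.

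The NDH genes split evenly: 5 of 10 read 2-fold or more lower in trichome, and the other 5 were at background on both arrays. ndhI, which encodes an iron-sulfur subunit of the arm that faces the stroma, read 2.75 in trichome and 7.82 in pavement, which is 33.6-fold lower, or -5.07. ndhC, for a small membrane subunit, read 7.12 in trichome and 11.92 in pavement (-4.80, or 27.9-fold lower). ndhD, a membrane subunit of the proton-pumping kind, read 3.67 in trichome and 7.74 in pavement (16.8-fold lower). These 3 genes were above background on both arrays, with a gap of more than 4 log2 units each.

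The remaining genes of the 5 with signal belong to the stromal arm. ndhJ was at background in trichome, at 2.36, and read 6.02 in pavement, so that it was at least 10.8-fold lower in trichome. ndhK, for the subunit that carries the iron-sulfur cluster nearest to the quinone, read 3.67 in trichome and 5.98 in pavement (4.95-fold lower), the narrowest of the 5 differences. The membrane subunit genes ndhA, ndhE, ndhF and ndhG and the stromal arm gene ndhH lay between 1.83 and 2.27 in trichome and between 1.69 and 1.97 in pavement, which gives no information on a difference. Membrane and stromal arm genes were thus found on both sides of the split. The median difference of the 10 genes was -1.20, midway between the genes with signal and those without.

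Few nuclear genes for the same complex could be set beside them. Of 39 listed nuclear names for NDH subunits and for factors of its assembly and transcript processing, 6 genes were measured, and 1 was 2-fold or more lower in trichome. NdhS (AT4G23890), the subunit at the ferredoxin-binding site, read 3.93 in trichome and 6.28 in pavement (-2.35, or 5.11-fold lower). NdhN read 2.33 in trichome and 2.58 in pavement, and NdhL 2.30 in trichome and 1.88 in pavement, readings at or next to the ceiling. CRR21, CRR22 and CRR28, pentatricopeptide repeat proteins that act in the editing of ndh transcripts, were at background on both arrays. The 37 listed names for nuclear factors of plastid transcription, and 20 nuclear genes described as plastid ribosomal proteins in the RefSeq table, had no probe set paired with 1 gene and were not analysed here.

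Genes for the small ribosomal subunit also fell into a part with wide differences and a part near background. rps19 read 5.16 in trichome and 10.29 in pavement (-5.12, or 34.9-fold lower). rps3 read 2.62 in trichome, just above the ceiling, and 7.35 in pavement (26.7-fold lower). rps4, whose protein binds the 16S ribosomal RNA early in assembly, read 5.18 in trichome and 9.89 in pavement (26.2-fold lower). The other 5 genes of the small subunit did not exceed 3.36 on either array.

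Among those 5, rps2 read 1.72 in trichome and 2.86 in pavement. Its difference of -1.14 passed 2-fold, but against the ceiling it was only at least 1.21-fold lower, and it is the gene that left the count when background readings were raised. rps18 read 2.64 in trichome and 3.36 in pavement, and rps15 read 2.14 in trichome and 2.69 in pavement, both short of 2-fold. rps14 and rps16 were at background on both arrays. The median difference of the 8 genes was -0.93, and 4 of 8 were counted as lower in trichome.

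Genes for the large subunit were counted as lower more often, in 6 of 7 cases against 5.07% of all genes, with a median difference of -3.12. No test of this share against the small subunit could be made. The median pavement signal was 5.76 for the large subunit and 3.11 for the small one. The widest differences of both subunits were those of rps19, rps3 and rps4 in the small one. rpl32 read 3.93 in trichome and 8.38 in pavement (21.8-fold lower), rpl33 read 3.04 in trichome and 7.28 in pavement (18.8-fold lower), and rpl20 read 3.12 in trichome and 7.19 in pavement (16.8-fold lower). All 3 are small genes that lie away from the main ribosomal protein cluster. Within that cluster, rpl14 read 2.64 in trichome and 5.76 in pavement (8.69-fold lower). rpl16, which contains an intron, read 2.30 in trichome, at background, and 4.08 in pavement (at least 2.82-fold lower). rpl36 read 2.58 in trichome and 3.67 in pavement (at least 2.13-fold lower), its trichome reading falling just under the ceiling. rpl22 was at background on both arrays, at 1.70 in trichome and 1.87 in pavement.

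Of the RNA polymerase genes only rpoA was well above background. rpoA, for the alpha subunit, read 7.58 in trichome and 11.11 in pavement (-3.53, or 11.5-fold lower). The beta-type subunit genes rpoB, rpoC1 and rpoC2, which form a cluster of their own, were at or close to background: rpoC2 read 2.72 in trichome and 3.30 in pavement. rpoC1 read 2.37 in trichome and 2.60 in pavement, and rpoB 1.53 in trichome and 1.89 in pavement. None of these 3 reached 2-fold, with differences from -0.58 to -0.23. Readings so close to background do not show whether these genes changed together with rpoA.

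Of the 7 other genes, 5 were counted as lower in trichome. matK, the maturase that helps splice plastid introns, read 3.09 in trichome and 8.42 in pavement, and its difference of -5.33 (40.2-fold lower) was the widest of the 36. ccsA, whose product attaches haem to c-type cytochromes, read 5.30 in trichome and 10.62 in pavement (-5.32, or 39.96-fold lower). clpP, the plastid-encoded catalytic subunit of the Clp protease, read 6.21 in trichome and 9.45 in pavement (-3.25, or 9.48-fold lower). The intron maturase, the cytochrome assembly factor and the protease subunit were all above background on both arrays.

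accD, a subunit of the acetyl-CoA carboxylase that starts fatty acid synthesis, read 2.25 in trichome and 3.77 in pavement (at least 2.27-fold lower). ycf4, an assembly factor of photosystem I, read 2.74 in trichome and 3.75 in pavement, and its difference of -1.005 lay just past 2-fold. The nearest gene short of 2-fold was rps18, with -0.72. cemA, an envelope membrane protein, read 2.67 in trichome and 3.16 in pavement. ycf3, a further photosystem I assembly factor, was at background on both arrays.

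The differences were next set along the plastid genome, since neighbouring plastid genes are often transcribed together. The gene order was taken from the RefSeq table of assembly TAIR10.1. A pair was formed by 2 protein-coding genes next to each other in that order, both measured, with at least 1 of them among the 36. The strand of the genes was not considered, so the genes of a pair or a run need not share a transcript. Of 40 such pairs, 15 had both genes counted as lower in trichome, 17 had 1 gene so counted and 8 had none. Of the 36 genes 58.3% were lower, and of the photosynthesis genes 69.7%. At such shares many pairs with both genes lower would occur without any link between neighbours, and an excess was not tested. In 12 of the 17 mixed pairs the other gene was at background on both arrays. The gap between the differences of a pair had a median of 1.55 and ranged between 0.06 and 6.24.

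**Figure D2:**
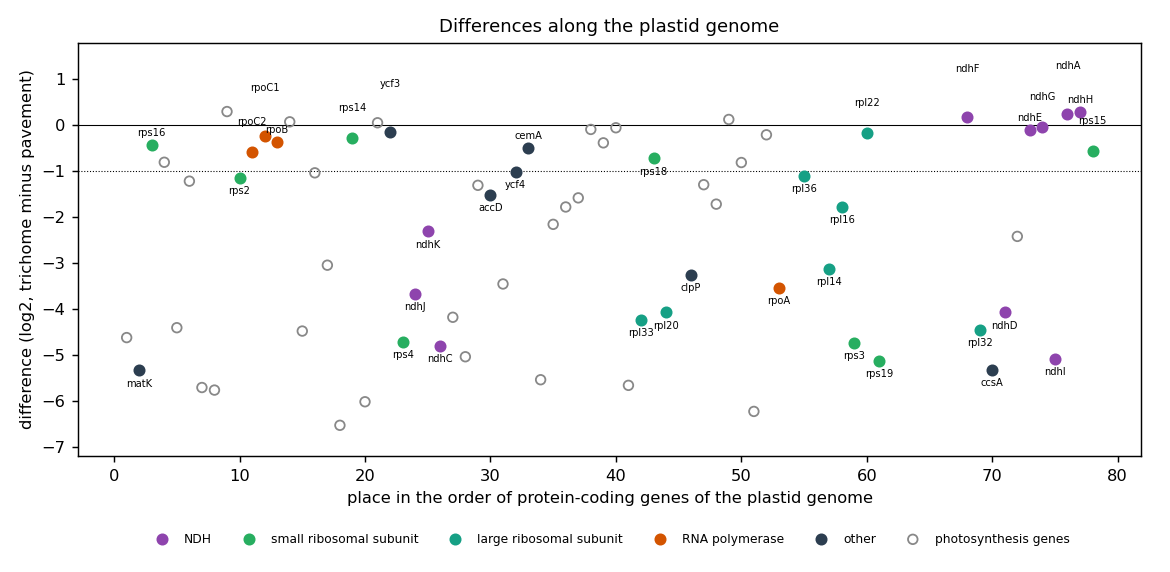
Difference in log2 signal (trichome minus pavement) of the 36 genes (filled, coloured by function) and of the photosynthesis genes (open) against their place in the order of plastid protein-coding genes; the dotted line marks 2-fold lower in trichome. Genes with differences below -4 stand next to genes near 0, as for rps14 beside psaB or ndhI between ndhG and ndhA.

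Some stretches held only genes counted as lower in trichome, though the size of the difference varied within them. In rps4, ndhJ, ndhK and ndhC and on into the ATP synthase gene atpE, all 5 genes in a row were lower in trichome. Their differences were -4.71 for rps4, -3.66 for ndhJ, -2.31 for ndhK, -4.80 for ndhC and -4.17 for atpE. The run went on through atpB (-5.03), rbcL (-1.30), accD (-1.51), psaI (-3.45) and ycf4 (-1.005) and ended at cemA. ndhC, ndhK and ndhJ are known as a common transcription unit, and the run extended past that unit on both sides. A second run was rpl32, ccsA, ndhD and psaC, with differences of -4.45, -5.32, -4.07 and -2.41. Next to psaC this run ended in ndhE and ndhG, both at background.

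Other stretches were broken. ndhI had a difference of -5.07, while its neighbours ndhG and ndhA had -0.03 and 0.24 and were at background on both arrays. In the ribosomal protein cluster, rpl22 at -0.17 lay between rps3 at -4.74 and rps19 at -5.12. rps14, which is transcribed together with the photosystem I genes psaA and psaB, had a difference of -0.28 and psaB one of -6.01. ndhG, ndhA, rpl22 and rps14 were at background, where a probe set has no measured difference. rps18 at -0.72 lay between rpl33 at -4.23 and rpl20 at -4.07, and these 3 genes were above background on both arrays.

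The size of the difference went with the brightness of a gene in pavement, both in these genes and on the rest of the array. Among the 9 genes with a pavement signal above background and up to 4, the median difference was -0.72, against -0.42 over 1559 other genes in that range that are not plastid-encoded. For pavement signals between 6 and 8, the median was -4.15 over 6 genes, against -3.36 over 105 other genes. For signals between 8 and 10, it was -4.58 over 4 genes and -4.90 over 45 other genes. For signals above 10, it was -4.96 over 4 genes and -4.60 over 17 other genes. The pavement signal enters both the range and the difference, so part of this relation follows from its construction. The photosynthesis genes of the plastid had medians of -5.70 over 3 genes between 6 and 8, -5.53 over 3 genes between 8 and 10 and -5.14 over 6 genes above 10. Above a pavement signal of 6 the medians of the NDH and gene-expression genes were thus within 1 log2 unit of those of other genes in the same range, and no test of these gaps could be made. Single genes lay further off, such as rps3 at -4.74 in the range from 6 to 8 and clpP at -3.25 in that from 8 to 10.

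**Figure D3:**
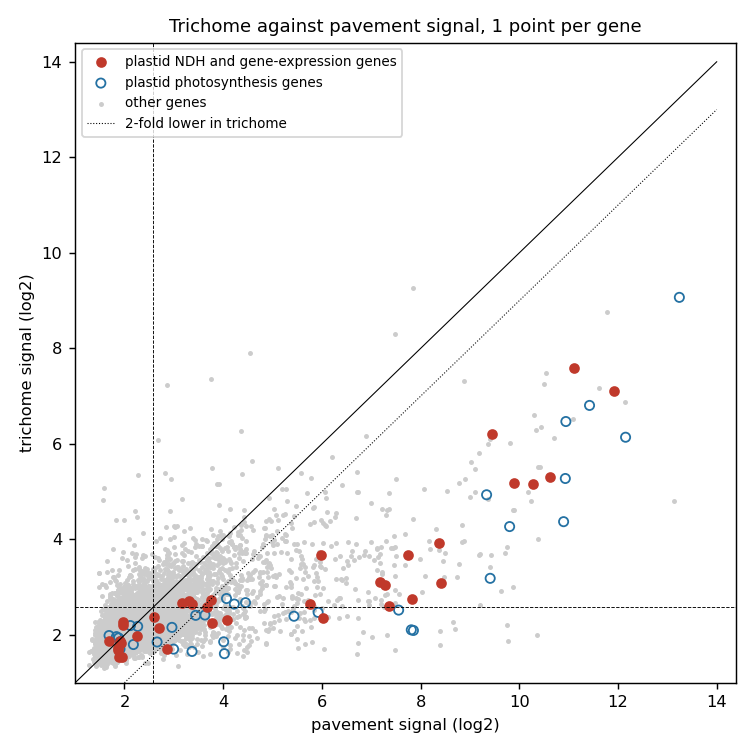
Trichome signal (vertical) against pavement signal (horizontal), both log2, with 1 point for each of 13356 genes; the solid line marks equal signals, the dotted line 2-fold lower in trichome and the dashed lines the background ceiling. Of the 36 genes (red), 33 lie below the solid line and 3 above it, and 10 are at background on both arrays. Of the photosynthesis genes of the plastid (blue rings), 29 lie below that line and 4 above it. At high pavement signals both sets bend away from the solid line, as the cloud does.

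**Figure D4:**
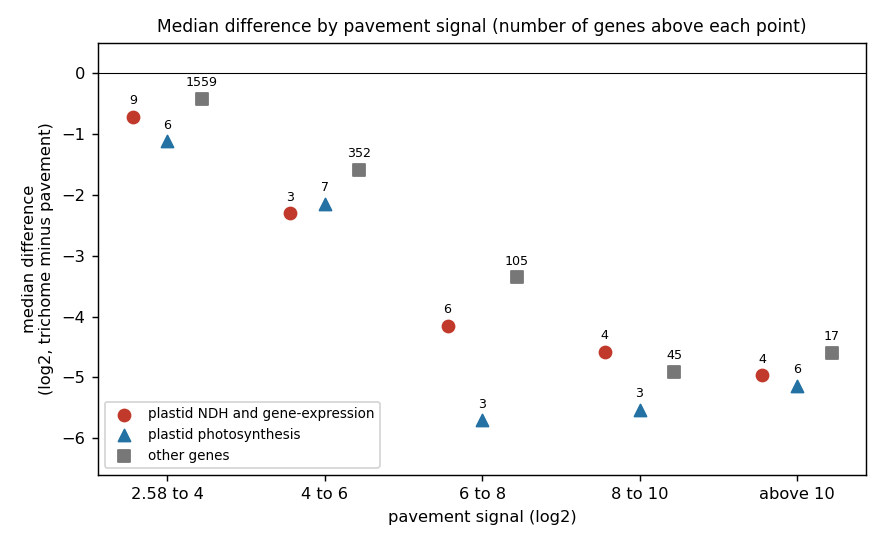
Median difference (log2, trichome minus pavement) in 5 ranges of pavement signal for the 36 genes (red circles), the plastid photosynthesis genes (blue triangles) and the genes that are not plastid-encoded (grey squares), with the number of genes above each point. The medians lie between -2.31 and -0.42 for pavement signals up to 6, and at -3.36 or lower for brighter ones.

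How far the arrays' scales differ is not known, so the 19 genes above background on both arrays were also compared after other scalings. Of these, 4 stayed 2-fold or more lower in trichome as deposited and under all 4 other scalings: ndhI (differences from -5.07 to -1.92), rps3 (-4.74 to -1.59), rpl33 (-4.23 to -1.08) and matK (-5.33 to -2.18). A further 4 (ndhD, rpl20, rps19 and ccsA) stayed below 0 under all of them. For the other 11 genes (ndhC, ndhK, rps4, rps18, rpl32, rpl14, rpoA, rpoC2, clpP, ycf4 and cemA) the sign depended on the scaling. In trichome ndhI, rps3, rpl33 and matK read only 2.62 to 3.09, not far above the ceiling of 2.58. The 11 held the genes brightest in trichome (clpP, ndhC and rpoA, 6.21 to 7.58) and also dim ones such as rps18 (2.64). A low trichome reading lowers the mean level that the lowess correction follows, and its part in the stability of those 4 was not tested. rpoA had -3.53 as deposited, -0.38 relative to the hybridisation controls, 0.29 after quantile normalization and 3.08 after a lowess correction for mean level. clpP had -3.25, -0.10, 0.63 and 1.88 on the same 4 scales, and ndhC -4.80, -1.65, -0.95 and 1.97. The direction given above for rpoA and clpP thus rests on the deposited scale. Relative to the controls both were below 0, but by less than the 0.95 spread between probe sets given earlier. ndhC was above 0 only after lowess, and had -0.49 with the median of all genes in bands of mean level subtracted. ndhK, rps18, rpl14, rpoC2, ycf4 and cemA were above 0 only relative to the controls, with differences there from 0.03 to 2.66.

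**Figure D5:**
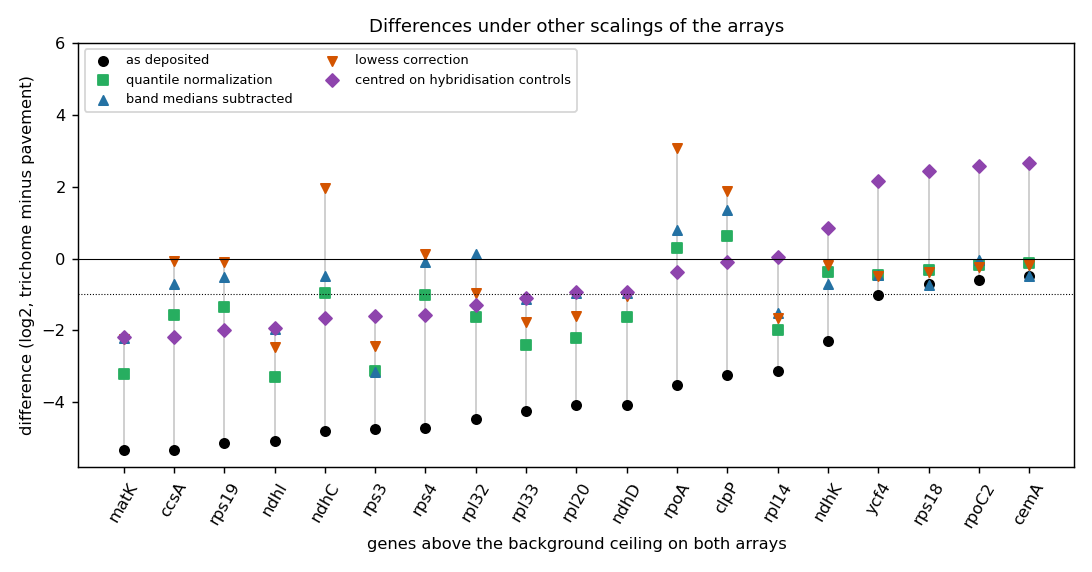
Difference (log2, trichome minus pavement) of the 19 genes above background on both arrays, as deposited (black circles) and under 4 other scalings, with a grey line over their range; the dotted line marks 2-fold lower in trichome. ndhI, rps3, rpl33 and matK lie below that line on every scale, and rpoA and clpP lie above 0 on 3 of the 5.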

How the data were processed

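Values are log2 signals per probe set deposited by the authors, who used RMA according to the submitters' processing notes. The sources used here do not give its version, the log base or which arrays were normalized together. The log2 scale was read from the range of the values, 1.28 to 14.2. Probe sets paired with exactly 1 gene (13513 of 22810) in the platform annotation of 2016 were kept, named through RefSeq gene identifiers of assembly TAIR10.1, and averaged per gene. The 36 plastid genes were all of those the rule names; 7 more (ndhB, rps7, rps12, rpl2, rpl23, ycf1 and ycf2) have probe sets paired with both copies in the inverted repeat and were left out. No mitochondrial gene entered. Coordinates and sequences are not given, since the build behind the annotation was not stated.

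Differences and counts were computed for all 13356 genes with pandas 2.3.3, and lowess (fraction 0.3) with statsmodels 0.14.6 in Python 3.11.15. No test was possible with 1 array per group; counts were checked on simulated data. Scalings, filters and probe set rules were varied. All listed members were named, with the other lists summarised. The members, lists and rules were chosen with earlier results of these data known. A listed epidermal name that matched formate dehydrogenase (FDH) was dropped, and TBR was matched by its full name, after the values were seen.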

Additional observations from a re-analysis of the deposited data

Results flagged for a closer look

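Signal outside the comparison appeared in 8 probe sets paired with both copies of 7 genes of the plastid's inverted repeat. Of these, 3 were above background in trichome and 5 in pavement. Their readings lay between 1.69 and 5.73 in trichome and between 1.95 and 11.63 in pavement, with a median difference of -1.004. Of the 8, 4 were 2-fold or more lower in trichome and 0 were higher, against 5.07% and 0.726% of all 13356 genes. A further 3 were at background on both arrays. Among the 4, the probe sets of ycf1 (2.08 in trichome, 3.10 in pavement) and rps12 (1.69 in trichome, 4.76 in pavement) were at background in trichome.

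The hybridisation control probe sets, which hold no plant transcript, differed by a median of -3.15 between trichome and pavement, with differences from -3.54 to -1.94 over 18 probe sets. Their lowest reading was 6.88, above most of the plastid genes described.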

How the results depend on the processing

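As deposited, 21 genes were 2-fold or more lower in trichome and 0 higher, with medians of -1.33 (all 36), -1.20 (NDH) and -1.77 (21 gene-expression genes). The counts were 11 and 3 after the lowess correction for mean level, 9 and 10 when centred on the hybridisation controls (9 and 4 over genes above background on both arrays) and 8 and 1 with the median of all genes in bands of mean level subtracted. The medians, in the same order of gene sets, were -0.35, -0.12 and -0.47 after lowess, -0.47, -0.25 and -0.63 after quantile normalization, -0.49, -0.32 and -0.52 with band medians subtracted, and 1.82, 1.95 and 1.38, reversed, when centred on the controls. That centring subtracts the controls' median of -3.15 from every difference, also where both readings are at background. Band medians and the restriction to genes above background on both arrays were chosen after the data were seen. Quantile normalization left the counts at 15 and 0, a 4-fold threshold gave 16 and 0, and raising background readings gave 20 and 0. The floor, no filter, the brightest probe set and leaving out probe sets of shared type left 21 and 0. No paired analysis was possible because each cell type has 1 array. The cause of these shifts was not tested.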
